A study of Mus musculus with 20 samples.

Results

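The genes of DNA replication and S phase were followed through 3 pooled single-cell experiments on differentiating mouse embryonic stem cells. The set has 36 genes, listed by symbol, and all 36 were found among the 27998 genes of the mesendoderm, mixed and germ layer matrices. The rule names symbols and sets no threshold on a measured value. By role they comprise 11 genes of the helicase and of replication origins, 3 of nucleotide supply, 7 of the fork and its polymerases, 6 of histones and chromatin, 6 of repair and ubiquitin, and 3 cyclin E or E2F genes.

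A cell prepares for S phase by loading the ring-shaped MCM helicase on origins. Cyclin E with CDK2 then starts the helicase, and polymerases, the sliding clamp PCNA and histone chaperones copy the DNA and its chromatin. Most of these genes are transcribed in waves by E2F factors, which the retinoblastoma protein holds back in many cell types. Pluripotent stem cells are known for short gap phases and for a large share of cells in S phase, and both change as they differentiate.

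The cells were mouse embryonic stem cells, a cell type that can form all embryonic tissues, from a male of strain 129P2/OlaHsd. They were kept in serum and LIF with UO126 and GSK3 inhibitor XV, were then withdrawn from these and moved to differentiation media before the treatments, which lasted 24 h. Cells of each well were transfected 2 to 16 h before harvest with a barcodelet, a short synthetic RNA that marks the well, and all wells of an experiment were pooled into 1 library. Each cell was thus traced to its treatment by the authors' deposited assignment.

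The germ layer experiment crossed 5 signals in all 32 ways, with an agonist for plus and an antagonist for minus. The pairs were retinoic acid or CD 2665 for RA, GSK3 inhibitor XV or IWR1 for Wnt, Activin A or A8301 for Tgfb, Bmp4 or Dorsomorphin for Bmp, and Fgf2 or UO126 for Fgf. In the mesendoderm experiment, cells first spent 24 h in Activin A, Fgf2 and GSK3 inhibitor XV together with Dorsomorphin and CD 2665, and then received combinations of 7 signals, Notch and Shh included. The mixed experiment combined the 5 signals with that mesendoderm start or with an undirected start, and each start had 8 control wells without a combinatorial treatment. For the mesendoderm and mixed designs, the tables used here do not name the compounds behind plus and minus. Every experiment is 1 library of 1 line, so p-values measure the spread between treated populations, not between cultures or lines.

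Cells with a passing assignment numbered 4350 of 8421 (germ layer), 2899 of 12781 (mesendoderm) and 4869 of 5944 (mixed). Their median depth was 15314, 11700 and 19105 UMIs (counted RNA molecules). Tests used 32 populations of 70 to 230 cells, 300 wells of 5 to 29 cells and 142 wells of 5 to 97 cells. Of the 383 mesendoderm and 144 mixed wells with cells, those with fewer than 5 cells were left out. Between pairs of experiments, 64 to 151 cell barcodes were shared. All 10 pluripotent cell markers were detected in each experiment, with median summed levels of 929.8, 545.2 and 2306 CPM. The 8 markers of fibroblast feeders summed to at most 75.1, 227.5 and 63.8 CPM in that order. Lum and Postn were under 1 CPM on average in all 3. Others were higher: Col1a1 averaged 7.73, 16.9 and 4.40 CPM, Col1a2 9.23, 10.3 and 3.11, and Pdgfrb 5.79, 8.79 and 4.87. Col1a1 reached 199.9 CPM in a mesendoderm well.

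A shared sequence feature was looked for in the promoters. RefSeq windows on GRCm38.p6, from 250 bases before to 50 after a start, were on hand for 29 of the 36 genes. They were searched on both strands for 4 words bound by E2F factors (TTTGGCGC, TTTCCCGC, TTTGCCGC and TTTCGCGC), counting overlapping words. A word was present for 10 of 29 members (34.5%), beside 704 of 27025 genes (2.61%). Other replication genes had one in 13 of 38 cases (34.2%), whereas mitosis genes had one in 1 of 26 (3.85%). Stretches before the RefSeq start are shown for 6 members whose levels are described below. Words are in capitals, so that the letters matched and their surroundings can be seen. By the GENCODE vM21 gene models, the stretches of Hells, Mcm7 and Cdc6 lie inside the gene, and that of Cdca7 crosses its start. Mcm7 has another RefSeq start, whose window held no word. Most members with a window had no word, and the difference from mitosis genes was not tested. Their places are chr2:72476137-72476166 (plus strand) for Cdca7, chr19:38930917-38930946 (plus) for Hells, chr8:75109336-75109387 (plus) for Mcm5, chr1:128359725-128359835 (minus) for Mcm6, chr5:138172030-138172059 (minus) for Mcm7 and chr11:98908002-98908031 (plus) for Cdc6.
Cdca7: tgcgtcccggcGCGGGAAAgccggtggccc
Hells: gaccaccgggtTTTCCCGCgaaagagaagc
Mcm5: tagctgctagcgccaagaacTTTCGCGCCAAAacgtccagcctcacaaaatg
Mcm6: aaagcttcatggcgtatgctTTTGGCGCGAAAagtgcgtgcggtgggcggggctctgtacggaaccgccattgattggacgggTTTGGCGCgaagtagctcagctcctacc
Mcm7: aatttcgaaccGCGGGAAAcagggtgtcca
Cdc6: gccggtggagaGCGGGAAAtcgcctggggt
In Mcm5 and Mcm6 words overlap each other. A match of letters is a description and not a measured binding site.

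Levels are given as CPM (UMI counts scaled to a common total with TMM, which corrects for the make-up of the RNA), as mean ± SD over populations. They come from 3′ tags and are not divided by gene length, so the order of genes is an order of counts. In the germ layer experiment Nasp, a chaperone of histones H3 and H4, was counted most (323.8 ± 41.4, n = 32). It was followed by Hells (259.7 ± 34.5), a chromatin remodeller needed for DNA methylation, Tipin (258.6 ± 27.5), which guards the fork with Timeless, and Gmnn (237.6 ± 24.5), the inhibitor of origin licensing. The lowest were E2f8 (11.2 ± 2.63), an E2F repressor, Pcna (13.1 ± 3.13), Cdc45 (14.4 ± 3.56), a helicase cofactor, and Ccne2 (17.9 ± 4.61), one of the cyclins E. The same 4 genes led in the mesendoderm and mixed experiments, with Tipin at 334.5 ± 74.6 and Hells at 330.7 ± 69.0 CPM in the mixed wells. Neighbours in these orders, such as Hells and Tipin in the germ layer populations, differed by less than their SD.

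Counts of some members are uncertain. Mcm7, Gins2, Fen1, Ccne2 and E2f8 overlap a gene on the other strand in GENCODE vM21 (GRCm38), and the sources used here do not say how reads were assigned to strands. Named pseudogenes exist for Pcna, Tyms and Nasp, and whether reads of these genes were lost to them was not tested. All 36 genes passed the filter on low counts in the germ layer and mixed experiments. Only 19 did in the mesendoderm experiment, where wells were small. Those left out there include Mcm4, Mcm10, Cdc6, Cdc45, Pcna, Ccne2 and E2f8.

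**Figure D1:**
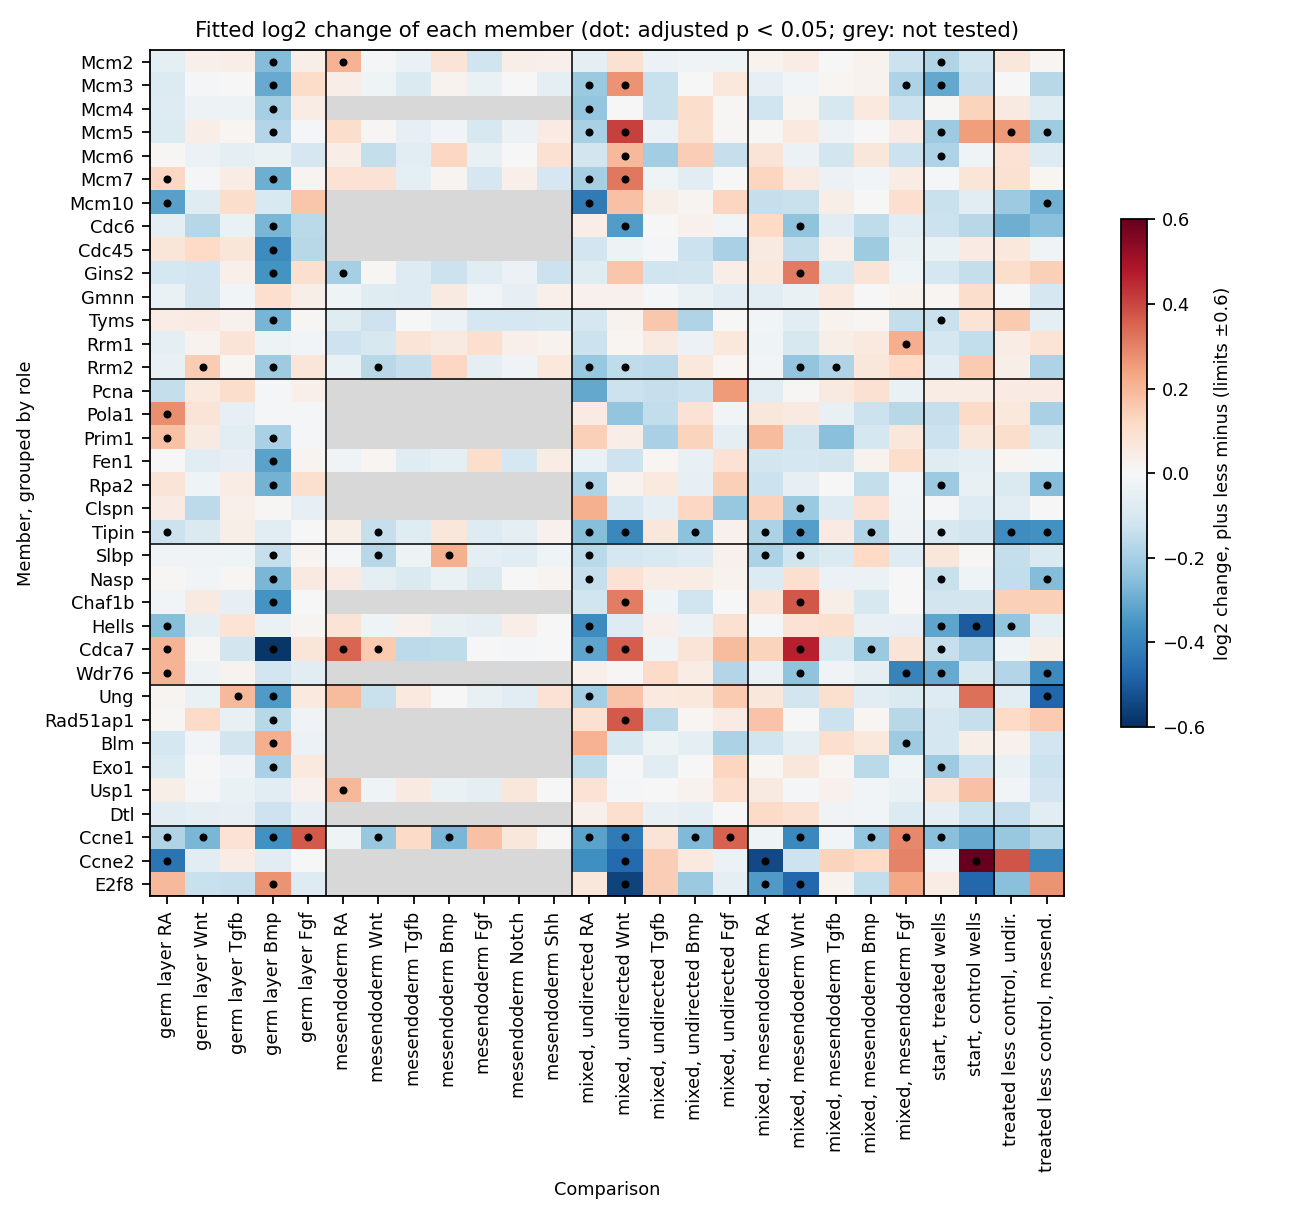
Fitted log2 change (colour, limits ±0.6) of each of the 36 genes (vertical axis, grouped by role) in each comparison (horizontal axis), plus less minus, mesendoderm less undirected start, or treated less control wells; dots mark an edgeR adjusted p under 0.05 and grey marks genes not tested. The germ layer Bmp column has 21 dots for genes that fell and 2 for genes that rose, and the Ccne1 row has dots in several pathways.

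Bmp4 against Dorsomorphin in the germ layer experiment was accompanied by lower levels of much of the set. With Bmp plus, 21 of the 36 genes fell (58.3%) and 2 rose, while 21.5% of the 10614 genes tested fell, 21.6% rose and 43.1% were called either way. The median log2 change was -0.18 over the members and 0.00 over all genes tested. Helicase and origin genes fell in 8 of 11 cases, nucleotide supply genes in 2 of 3, fork genes in 3 of 7, histone and chromatin genes in 4 of 6, and repair genes in 3 of 6. In the cyclin E and E2F group Ccne1 fell and E2f8 rose. In these tests each pathway level had 16 populations, and all adjusted p-values are from edgeR's quasi-likelihood test over all genes tested.

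Cdca7, the partner that brings Hells to chromatin (chr2:72476159-72486893, plus strand), changed most. Its level ran from 53.4 over a median of 68.6 to 82.6 CPM in Bmp plus populations and from 84.0 over 97.0 to 118.6 CPM in Bmp minus populations. The ranges did not overlap. The fitted log2 change was -0.58 ± 0.05 (SE, adjusted p = 2.125e-11).

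Mcm3, a subunit of the MCM ring (chr1:20802968-20820312, minus strand), ran from 88.8 over 107.7 to 122.1 CPM with Bmp plus and from 118.8 over 131.9 to 147.8 CPM with Bmp minus. In 15 of 16 minus populations it lay above every plus population, and the change was -0.30 ± 0.04 (adjusted p = 5.997e-08). Gins2, a subunit of the GINS part of the helicase (chr8:120578633-120589304, minus strand), ranged from 68.7 over 85.3 to 96.5 CPM against 85.5 over 104.3 to 131.3 CPM, a change of -0.36 ± 0.05 (1.045e-07). Here 12 of 16 minus populations lay above all plus populations. Rpa2, a subunit of the protein that coats single-stranded DNA (chr4:132768332-132778752, plus strand), ranged from 66.9 over 78.7 to 88.9 CPM against 82.4 over 97.1 to 105.4 CPM, with a change of -0.28 ± 0.04 (4.892e-07). Ccne1, cyclin E1 (chr7:38097984-38107534, minus strand), overlapped more widely, from 66.2 over 107.9 to 157.2 CPM against 94.7 over 133.0 to 180.2 CPM, with a change of -0.36 ± 0.05 (1.915e-06).

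The other members that fell with Bmp plus lay between -0.38 for Cdc45 and -0.14 for Slbp, the protein that binds the stem-loop of histone mRNAs. Among them were Mcm2 (-0.26), Mcm4 (-0.20), Mcm5 (-0.17), Mcm7 (-0.29) and Cdc6 (-0.27), which loads the ring. Tyms (-0.28), thymidylate synthase, and Rrm2 (-0.21), the regulated subunit of ribonucleotide reductase, fell too, as did Fen1 (-0.32), the flap nuclease, Chaf1b (-0.36), a subunit of the chromatin assembly factor CAF-1, and Ung (-0.34), which removes uracil from DNA. The exceptions were Blm, a repair helicase, which rose from 32.1 to 38.4 CPM (0.22 ± 0.08, adjusted p = 0.01716), and E2f8, which rose from 10.2 to 12.1 CPM (0.27 ± 0.11, 0.04121). Hells, the remodeller that Cdca7 acts with, had a value of -0.04 ± 0.04 that did not pass the test. Of the 10 members with an E2F word in the promoter window 5 fell, and of the 19 matched members without one 13 fell.

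**Figure D2:**
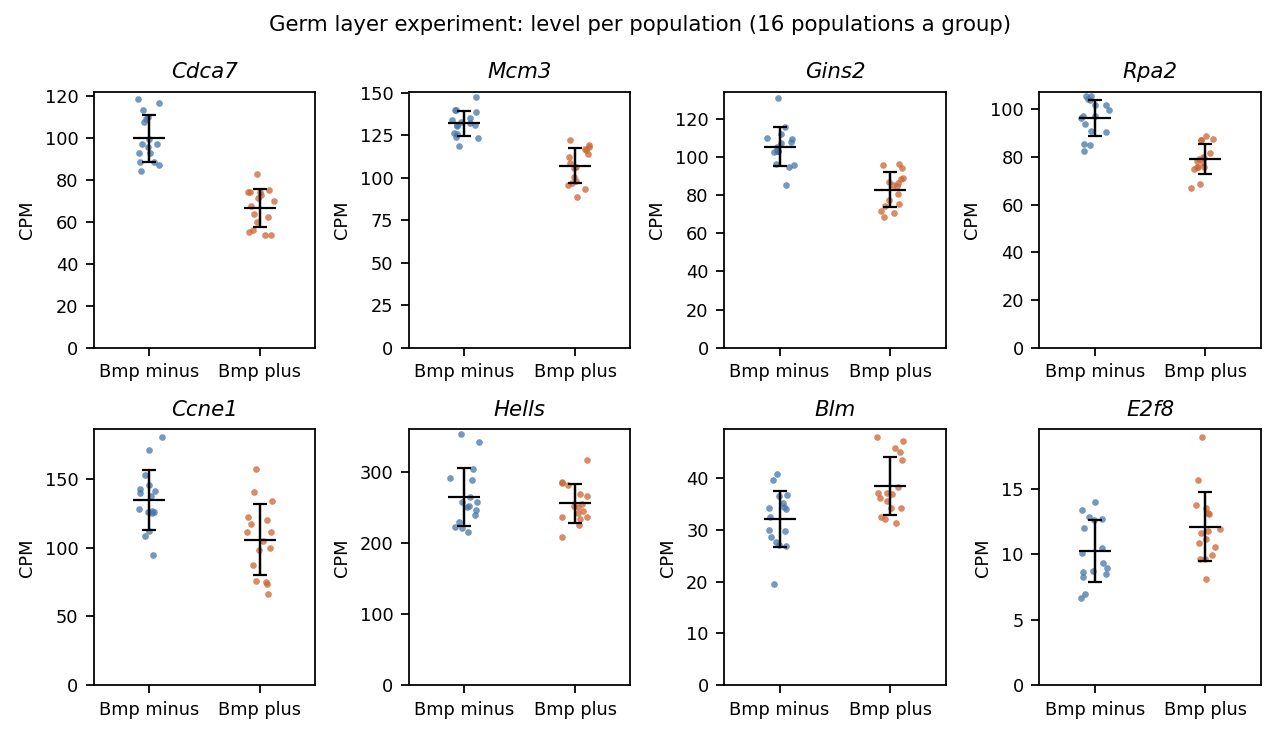
Level (CPM, vertical axes from 0) of 8 members in the 16 Bmp minus (blue) and 16 Bmp plus (orange) populations of the germ layer experiment; each point is a population, bars give the mean and SD. Cdca7 separates completely (means 99.8 and 66.6 CPM), Mcm3, Gins2 and Rpa2 nearly so, and Hells overlaps.

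Lists of other cell cycle genes are given beside the members, and differences between lists were not tested. Of 45 other replication genes, 19 fell with Bmp plus and 0 rose. Tk1, thymidine kinase, went from 62.3 to 45.6 CPM (-0.45 ± 0.05, adjusted p = 3.742e-08), and Dut, which destroys dUTP, from 519.6 to 417.0 CPM (-0.32 ± 0.04, 3.825e-08). Mitosis genes fell in 11 of 30 cases and rose in 2, with a median of -0.04. Among 9 CDK inhibitors and D cyclins 5 rose and 2 fell. Cdkn2b, an inhibitor of the CDKs that inactivate the retinoblastoma protein, rose from 7.78 to 23.8 CPM (1.59 ± 0.18, 6.749e-09), and Ccnd1, cyclin D1, fell from 157.4 to 107.7 CPM (-0.57 ± 0.08, 9.787e-07).

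Cell type markers moved with Bmp as well. The 6 lateral mesoderm markers summed to 369.3 to 979.7 CPM in plus and 51.5 to 271.0 CPM in minus populations, and the 6 surface ectoderm and trophoblast markers to 1100 to 2124 against 376.7 to 881.4 CPM. Most of the second sum was the keratins Krt8 and Krt18, with means of 521.2 and 455.7 CPM over all populations. In that list Cdx2 averaged 69.4, Gata3 29.2 and Tfap2a 20.4 CPM, and Elf5 was under 1 CPM. Of the lateral mesoderm markers Msx1 averaged 169.8, Tbx3 97.8, Msx2 71.0, Hand1 48.1, Bmp4 12.4 and Foxf1 1.55 CPM, so the first 3 made up most of that sum. Pluripotent markers averaged 810.2 CPM with plus and 1214 CPM with minus, and cells held 17330 and 15850 UMIs on average. Their part in the result was not tested. With the depth per cell as a covariate 14 members fell and 1 rose, beside 27.7% of all genes called. With every cell thinned to 5000 UMIs 12 fell, beside 27.5% of all genes called, where the main fit called 43.1%.

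RA raised 5 and lowered 5 of 36 members in the germ layer populations, the same share as among all genes, of which 14.1% were raised, 13.6% lowered and 27.7% called. Hells ran from 207.6 over 235.9 to 268.2 CPM with RA plus and from 244.2 over 282.5 to 352.1 CPM with RA minus, a change of -0.26 ± 0.04 (adjusted p = 3.168e-05). Every plus population lay below the median of the minus populations. Ccne2 fell from 20.6 to 15.1 CPM (-0.44 ± 0.10, 0.001178), and Mcm10, which helps to activate the helicase, from 37.1 to 29.4 CPM (-0.32 ± 0.08, 0.001979). Ccne1 (-0.18) and Tipin (-0.13) fell by less.

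Rises with RA were found for the primase and polymerase genes Pola1, from 21.3 to 25.9 CPM (0.28 ± 0.08, adjusted p = 0.00772), and Prim1 (0.17), and for Cdca7, from 77.3 to 89.1 CPM (0.21 ± 0.05, 0.001829). Wdr76 (0.21) and Mcm7 (0.12) also rose. With DESeq2 size factors the split was 3 rises and 5 falls, with depth as a covariate 2 and 3, and with thinned cells 1 and 4. In that order 27.8, 17.2 and 14.8% of all genes were called. Cells held 15960 UMIs on average with RA plus and 17220 with RA minus. Wnt plus lowered Ccne1 from 131.8 to 108.9 CPM (-0.27 ± 0.05, 0.0002766) and raised Rrm2 from 174.1 to 193.4 CPM (0.15 ± 0.05, 0.0142), against 12.1% of all genes that rose, 11.9% that fell and 23.9% called. Scaling by the UMI total alone gave 0 rises and 5 falls for Wnt, beside 845 of 10614 genes that rose and 2042 that fell. Fgf plus raised Ccne1 alone, from 105.4 to 135.3 CPM (0.37 ± 0.06, 2.51e-05), beside 4.58% of all genes that rose, 3.35% that fell and 7.93% called. Tgfb plus raised Ung alone, from 71.7 to 82.8 CPM (0.19 ± 0.06, 0.02542), beside 4.07, 2.95 and 7.02%. With cells thinned or with depth as a covariate Ung did not pass, and 3.51 and 4.62% of all genes were called.

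Pairs of signals were examined through their products, 10 in all. Each gave 0 called members by edgeR and 0 by DESeq2. Of the 11410 genes tested in that fit, 3.87% were called for Wnt with Bmp, 3.63% for RA with Wnt, 3.01% each for RA with Bmp and for Tgfb with Bmp, 0.412% for RA with Fgf, 0.175% for RA with Tgfb, 0.0701% for Bmp with Fgf, 0.0175% for Tgfb with Fgf and 0 for the others. At an unadjusted p under 0.05 the members numbered 1 to 7 per pair.

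In the mesendoderm experiment RA raised 3 and lowered 1 of the 19 tested members, near the share among all genes given below. RA raised Cdca7 from 73.0 ± 31.6 (n = 154) to 94.2 ± 38.8 CPM (n = 146), a log2 change of 0.35 ± 0.07 (edgeR adjusted p = 4.857e-06). Cdca7 lay above the median of the minus wells in 96 of 146 plus wells, and the ranges overlapped (0 to 199.6 CPM with plus, 13.3 to 176.6 CPM with minus). RA also raised Mcm2 (0.21 ± 0.06, 0.008348) and Usp1 (0.20 ± 0.06, 0.004399), a deubiquitinase of PCNA, and lowered Gins2 (-0.20 ± 0.07, 0.01566), while 11.6% of 2328 genes rose, 10.3% fell and 21.9% were called. With cells thinned to 5000 UMIs only 5 members had enough counts to be tested, and 0 passed, beside 16.2% of all genes called. With at least 10 cells per well 1 passed, beside 8.18% of all genes called. Primitive streak markers averaged 188.5 CPM with RA plus and 471.2 CPM with RA minus, and their part was not tested.

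Wnt changed 5 of the 19, against 19.9% of all genes that rose, 19.6% that fell and 39.6% called. Slbp fell from 158.4 to 143.9 CPM (-0.17 ± 0.05, adjusted p = 0.002828), Tipin from 240.2 to 222.8 (-0.14 ± 0.04, 0.003651), Ccne1 from 88.5 to 75.9 (-0.23 ± 0.07, 0.005414) and Rrm2 from 114.5 to 102.1 (-0.17 ± 0.06, 0.02594). Cdca7 rose, from 78.6 to 88.2 CPM (0.16 ± 0.07, 0.04445). This rise did not pass with DESeq2 size factors or the UMI total, where 5 members fell and 0 rose. Of the 5 members tested in thinned cells 1 fell, and wells of at least 10 cells gave 3 falls. In these settings 33.4 and 18.9% of all genes were called. Surface ectoderm and trophoblast markers averaged 346.3 CPM with Wnt plus and 638.7 CPM with Wnt minus. Krt8 and Krt18 were most of this sum (213.5 and 172.8 CPM over all wells), and Tfap2a averaged 2.99 CPM. Bmp lowered Ccne1 from 91.3 to 74.1 CPM (-0.27 ± 0.07, 0.0009243) and raised Slbp from 138.3 to 163.0 CPM (0.21 ± 0.05, 0.0002503), beside 15.9% of all genes that fell, 13.4% that rose and 29.3% called. With at least 10 cells per well 0 members passed, and 7.76% of all genes were called. Lateral mesoderm markers averaged 560.9 CPM with Bmp plus and 148.6 CPM with Bmp minus. Msx1, Tbx3 and Msx2 were most of this sum (131.5, 92.0 and 71.7 CPM over all wells), and Foxf1 averaged 14.1 CPM. The part of these markers was not tested. Tgfb, Fgf, Notch and Shh gave 0 called members by edgeR and by DESeq2, with 3, 2, 0 and 1 at an unadjusted p under 0.05 and 10.1, 9.28, 1.16 and 0.043% of all genes called. Plus and minus wells were uneven for Tgfb (108 and 192) and Fgf (168 and 132).

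In the mixed experiment, RA lowered members from the undirected start. With RA plus 14 of 36 fell (38.9%) and 0 rose, while 17.5% of 8791 genes fell, 16.9% rose and 34.3% were called either way. The members' median was -0.12 and that of all genes 0.01. All 14 kept their sign in each of the 2 sets of wells that differ in the third barcodelet. Among all members, 8 falls were called in the first set and 4 in the second. DESeq2 size factors gave 9 falls and 2 rises, with 34.8% of all genes called. Thinned cells, where 28 members could be tested here and in the other mixed comparisons, gave 5 falls, with 21.9% of all genes called.

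Hells (chr19:38930915-38971051, plus strand) had the smallest adjusted p. It ran from 202.5 over 315.0 to 429.4 CPM in 30 RA plus wells and from 270.4 over 406.7 to 527.2 CPM in 32 RA minus wells, a change of -0.38 ± 0.05 (adjusted p = 2.312e-10). In 31 of 32 minus wells the level was above the plus median. Mcm10 averaged 46.1 against 59.3 CPM (-0.42 ± 0.09, 2.209e-05) and Tipin (chr9:64281581-64305424, plus strand) 308.9 against 363.0 CPM (-0.26 ± 0.05, 6.868e-05). Cdca7 averaged 65.6 against 80.1 CPM (-0.32 ± 0.07, 0.0001114), and Rrm2 112.2 against 129.1 (-0.23 ± 0.06, 0.001612). The smaller falls included Mcm3 (-0.22), Mcm4 (-0.23), Mcm5 (-0.19), Mcm7 (-0.20), Nasp (-0.14) and Ung (-0.20).

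Other replication genes fell in 11 and rose in 5 of 45 cases with RA. Shmt1, which feeds one-carbon units to thymidylate synthesis, went from 68.5 to 47.8 CPM (-0.60 ± 0.09, adjusted p = 3.077e-09), while Rpa1, the large subunit of the single-strand binding protein, went from 73.4 to 99.2 CPM (0.40 ± 0.07, 1.008e-06). Mitosis genes rose in 8 and fell in 3 of 30 cases. Pluripotent markers averaged 2111 CPM with RA plus and 2622 with RA minus, and primitive streak markers 39.8 and 141.3 CPM. Their part in these values was not tested.

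Wnt split the set from the undirected start: 7 members rose and 6 fell, or 13 of 36, the same share as the 36.1% of all genes called (16.7% rose and 19.4% fell). Tipin ran from 192.6 over 298.0 to 436.9 CPM with Wnt plus and from 207.1 over 394.4 to 478.6 CPM with Wnt minus (-0.39 ± 0.06, adjusted p = 1.647e-09). Mcm5 (chr8:75109569-75128439, plus strand) went the other way, from 71.4 over 117.5 to 149.4 CPM against 51.2 over 87.3 to 119.5 CPM (0.41 ± 0.06, 3.819e-08). In 14 of 30 plus wells Mcm5 lay above every minus well.

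Both directions were found within roles. Helicase and origin genes rose in 4 of 11 cases: Mcm5, Mcm7 (69.5 to 85.2 CPM, 0.32 ± 0.07, adjusted p = 0.0001745), Mcm3 (99.2 to 120.6, 0.27 ± 0.07, 0.0005704) and Mcm6 (0.20 ± 0.08, 0.04334). Cdc6 of that group fell (-0.33 ± 0.12, 0.02358). All 3 cyclin E and E2F genes fell, with Ccne1 at -0.42 ± 0.09 (4.365e-05), E2f8 at -0.56 ± 0.17 (0.007082) and Ccne2 at -0.46 ± 0.16 (0.01711). Cdca7 (0.36 ± 0.07, 7.317e-06), Rad51ap1 (0.37 ± 0.10, 0.0009023) and Chaf1b (0.31 ± 0.11, 0.02037) rose. All 13 kept their sign in both sets of wells. Among all members, 5 rose and 2 fell in the first set and 3 rose and 3 fell in the second.

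Scaling bears on this split. With counts scaled by the UMI total alone, the median of all genes with Wnt plus moved from -0.01 to -0.16 and 4 members rose and 13 fell. The share of all genes called on that scale is not given here, so these counts are not read as a change of the members. Thinned cells gave 3 rises and 2 falls, with 27.2% of all genes called. Other replication genes rose in 13 and fell in 4 of 45 cases, with Cdt1, the licensing factor, at 77.6 against 61.8 CPM (0.35 ± 0.08, adjusted p = 8.724e-05). Mitosis genes fell in 10 and rose in 2 of 30, with Nusap1, a spindle protein, at 31.0 against 52.96 CPM (-0.71 ± 0.10, 1.129e-09). Primitive streak markers averaged 158.6 CPM with Wnt plus and 29.9 CPM with Wnt minus, and their part was not tested.

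**Figure D3:**
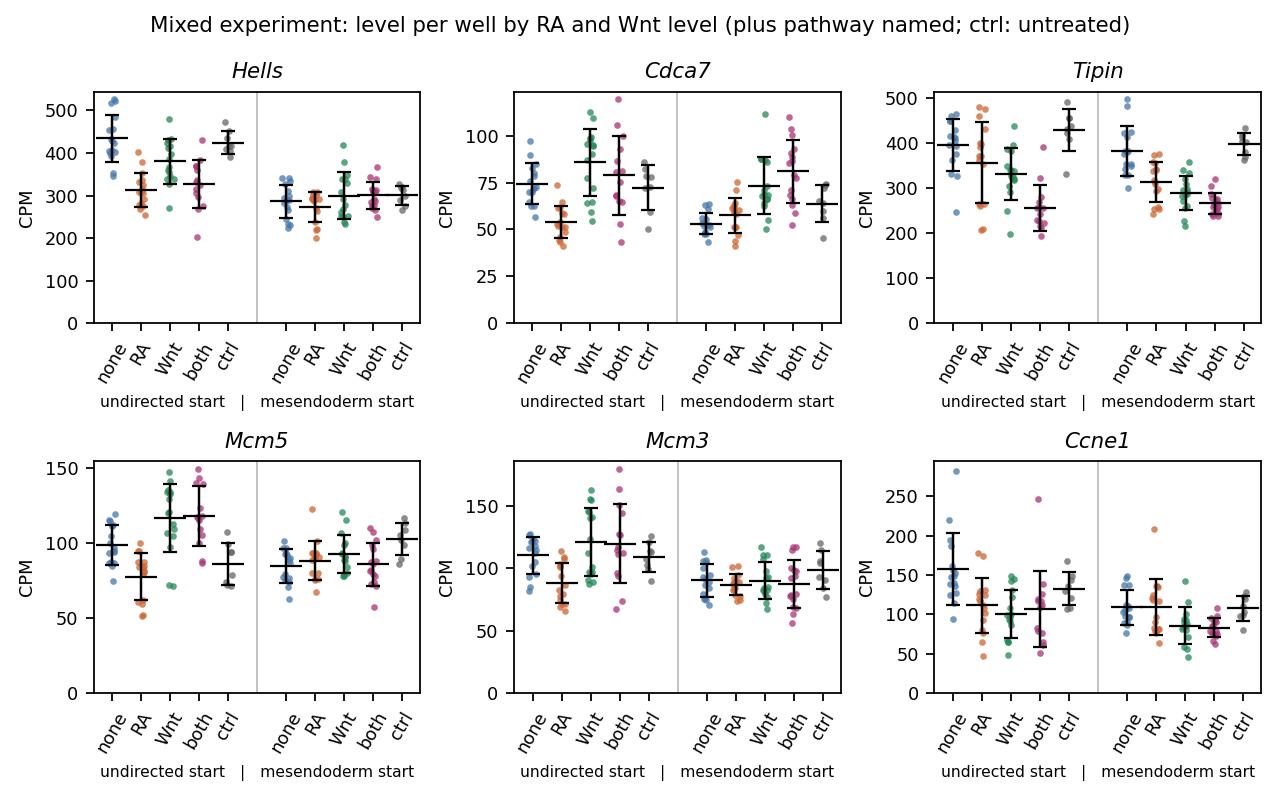
Level (CPM, vertical axes from 0) of 6 members per well of the mixed experiment, by start and by which of RA and Wnt was plus; ctrl marks the control wells, points are wells, and bars give the mean and SD. Hells is lower with RA from the undirected start, Mcm5 and Mcm3 are higher with Wnt from that start, and Tipin is lower with Wnt from both.

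From the mesendoderm start, Wnt raised 3 and lowered 8 of the 36, beside 19.9% of all genes that rose, 21.2% that fell and 41.1% called. Cdca7 ran from 50.0 over 72.1 to 111.3 CPM in 32 plus wells and from 41.4 over 53.2 to 75.3 CPM in 32 minus wells (0.47 ± 0.06, adjusted p = 4.4e-12). In 30 of 32 plus wells it was above the minus median. Tipin ran from 215.5 over 274.5 to 357.2 CPM against 242.7 over 346.0 to 498.1 CPM (-0.33 ± 0.05, 3.308e-09). Gins2 (0.31 ± 0.06, 1.436e-05) and Chaf1b (0.37 ± 0.09, 0.0001377) also rose.

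Ccne1 (-0.39 ± 0.08, adjusted p = 8.057e-06), Rrm2 (-0.24 ± 0.05, 6.594e-05) and E2f8 (-0.47 ± 0.12, 0.0009838) fell, and so did Clspn, a checkpoint mediator at the fork, Wdr76, Cdc6 and Slbp, by 0.12 to 0.24. All 11 kept their sign in both sets. Among all members, 3 rises and 6 falls were called in the first and 3 and 2 in the second. With the UMI total as the scale the median of all genes moved from -0.01 to -0.15, and 3 members rose and 21 fell. The share of all genes called on that scale is not given here, so these counts are not read as a change of the members. Thinned cells gave 1 rise and 5 falls, with 31.3% of all genes called. Mitosis genes fell in 15 of 30 cases and rose in 0, with Anln, the scaffold of the cleavage furrow, at 24.8 against 37.2 CPM (-0.59 ± 0.08, 7.164e-10). Cdkn1a, the CDK inhibitor p21, averaged 454.6 CPM with Wnt plus and 186.1 CPM with Wnt minus (1.29 ± 0.08, 7.566e-32).

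RA from the mesendoderm start lowered 4 members and raised 0, against 15.6% of all genes that fell, 14.4% that rose and 30% called. They were Ccne2 (17.7 to 11.4 CPM, -0.54 ± 0.12, adjusted p = 0.0001101), Tipin (335.5 to 289.7, -0.19 ± 0.05, 0.001038), Slbp (124.8 to 109.3, -0.19 ± 0.05, 0.00142) and E2f8 (-0.34 ± 0.12, 0.02698). The fall of all 4 had the same sign in both sets, where 4 and 2 falls were called among all members. DESeq2 size factors gave 3 rises and 4 falls, the UMI total 0 and 8, and thinned cells 0 and 0. Of all genes 29.5% were called with DESeq2 size factors and 20.9% with thinned cells, and the share with the UMI total is not given here.

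Bmp, Fgf and Tgfb changed 0 to 5 members per start. From the undirected start Bmp lowered Tipin (-0.24 ± 0.05, adjusted p = 0.000954) and Ccne1 (-0.27 ± 0.09, 0.03705) with 3.49% of all genes that fell, 4.32% that rose and 7.81% called. Fgf raised Ccne1 there (0.35 ± 0.09, 0.001952), beside 6.85% that rose, 6.42% that fell and 13.3% called. From the mesendoderm start Bmp lowered Cdca7 (-0.22 ± 0.06, 0.003987), Tipin (-0.18 ± 0.05, 0.00595) and Ccne1 (-0.24 ± 0.08, 0.02492), beside 5.36% of all genes in each direction and 10.7% called. Fgf lowered Wdr76 (-0.40 ± 0.08, 2.5e-05), Mcm3 (-0.18 ± 0.06) and Blm (-0.21 ± 0.07), and raised Rrm1, the large subunit of ribonucleotide reductase (0.22 ± 0.06, 0.00365), and Ccne1 (0.29 ± 0.08, 0.003806), beside 6.44% that fell, 7.12% that rose and 13.6% called. The split for Fgf was 4 rises and 1 fall with the UMI total, for which the share of all genes is not given here. Tgfb lowered Rrm2 (-0.18 ± 0.05, 0.01362) from the mesendoderm start, beside 2.41% that fell, 4.55% that rose and 6.96% called. From the undirected start it gave 0 called members by edgeR and by DESeq2, 5 at an unadjusted p under 0.05 and 4.14% of all genes. In single sets of wells these comparisons called 0 to 3 of all members each, and all members named here kept their sign in both. Calls in a set need not be of these members, since Fgf from the undirected start had 0 rises and 1 fall in the second set.

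The pathway changes were tested for a difference between starts. For RA, 3 members had a higher change from the mesendoderm start, beside 2.45% of all genes higher, 3.23% lower and 5.68% either way: Hells (-0.38 from the undirected and -0.01 from the mesendoderm start, difference 0.37 ± 0.07, adjusted p = 8.376e-05), Cdca7 (-0.32 and 0.14, 0.45 ± 0.09, 0.0002549) and Mcm7 (-0.20 and 0.13, 0.33 ± 0.09, 0.01711). For Wnt, 3 had a lower one, beside 3.63% lower, 4.14% higher and 7.77% either way: Mcm5 (0.41 and 0.06, -0.35 ± 0.08, 0.002561), Mcm3 (0.27 and -0.02, -0.29 ± 0.09, 0.02553) and Rad51ap1 (0.37 and 0.00, -0.37 ± 0.12, 0.03803). In single sets of wells, 1 of all members was called for RA in each set and 0 for Wnt. All 6 differences had the same sign in both, which their selection in the pooled wells favoured. Tgfb, Bmp and Fgf gave 0 by edgeR and DESeq2, with 0, 2 and 4 at an unadjusted p under 0.05 and 0, 0.193 and 1.47% of all genes.

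The starts themselves differed in the level of many members. In treated wells 13 of 36 were lower from the mesendoderm start (36.1%) and 0 higher, beside 11.4% of all genes lower, 14.2% higher and 25.6% either way, and the members' median was -0.11 against 0.00. Hells ran from 199.8 over 290.4 to 419.6 CPM in 64 mesendoderm-start wells and from 202.5 over 356.7 to 527.2 CPM in 62 undirected wells (-0.32 ± 0.03, adjusted p = 5.536e-14). Mcm3 averaged 88.7 against 109.6 CPM (-0.30 ± 0.04, 1.265e-08), Mcm5 87.8 against 102.1 (-0.22 ± 0.04, 1.868e-05), Wdr76 31.7 against 38.6 (-0.30 ± 0.06, 2.734e-05) and Rpa2 62.7 against 74.1 (-0.22 ± 0.05, 0.0002421).

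All 13 kept their sign in both sets, with 11 falls and 1 rise called in the first and 5 falls in the second. Thinned cells gave 8 falls, with 16.7% of all genes called. Of 45 other replication genes 14 were lower and 0 higher, and of 30 mitosis genes 10 and 0. Markers differed too: surface ectoderm and trophoblast genes averaged 450.3 CPM from the mesendoderm and 207.7 CPM from the undirected start, and lateral mesoderm genes 267.4 and 172.3 CPM. Krt8 and Krt18 were most of the first sum (125.7 and 122.7 CPM over all mixed wells), and Tfap2a averaged 3.53 CPM. Tbx3, Msx1 and Msx2 were most of the second (93.2, 51.9 and 34.6 CPM), and Foxf1 averaged 2.74 CPM. The part of these markers in the differences was not tested.

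In the control wells, which saw no combinatorial treatment, 1 member was lower and 1 higher from the mesendoderm start, beside 4.27% of all genes lower, 4.3% higher and 8.57% called. Hells ran from 265.6 over 305.4 to 326.9 CPM in 8 mesendoderm-start wells and from 390.0 over 415.4 to 473.6 CPM in 8 undirected wells. These ranges did not overlap, and the change was -0.50 ± 0.09 (edgeR adjusted p = 8.213e-06). Ccne2 ran from 16.7 over 19 to 21.8 CPM against 7.65 over 10.0 to 20.8 CPM (0.75 ± 0.23, 0.02495), with 1 undirected well in the mesendoderm-start range. In each set alone the fall of Hells was called and the rise of Ccne2 was not.

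Treated wells were also set against the 8 control wells of their start, which the comparison above used too. From the undirected start Tipin averaged 336.8 CPM in 62 treated and 428.6 CPM in 8 control wells (-0.37 ± 0.07, adjusted p = 1.451e-05), Hells 364.7 and 424.4 CPM (-0.24 ± 0.07, 0.005259), and Mcm5 102.1 and 86.2 CPM (0.26 ± 0.09, 0.02236), with 11% of all genes that fell, 8.3% that rose and 19.3% called. From the mesendoderm start 7 members fell and 0 rose, beside 8.5% of all genes that fell, 7% that rose and 15.5% called. Ung averaged 88.7 CPM in 64 treated and 123.0 CPM in 8 control wells (-0.47 ± 0.09, 6.746e-06), and 62 of 64 treated wells lay below the control median of 123.2 CPM.

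Tipin averaged 312.6 and 397.5 CPM from that start (-0.36 ± 0.07, adjusted p = 1.38e-05), Nasp 247.0 and 294.3 (-0.26 ± 0.06, 0.0004995), Wdr76 31.7 and 40.3 (-0.38 ± 0.09, 0.001854) and Mcm10 47.0 and 57.2 (-0.29 ± 0.09, 0.01553). In single sets 2 falls among all members were called for the undirected and 3 for the mesendoderm start in each set. All members called in the full fit kept their sign. Pluripotent markers averaged 2174 CPM in treated and 3505 CPM in control wells of the mesendoderm start, and mitosis genes fell in 11 of 30 cases and rose in 0. Their part was not tested.

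Among the 36, Ccne1 passed in the most comparisons of single pathways, and its values can be set side by side. Bmp plus gave -0.36 in the germ layer and -0.27 in the mesendoderm experiment, and -0.27 and -0.24 in the undirected and mesendoderm starts of the mixed one. Wnt plus gave -0.27, -0.23, -0.42 and -0.39 in the same order. Fgf plus gave 0.37, 0.18, 0.35 and 0.29, of which the mesendoderm experiment's value did not pass (SE 0.07, edgeR adjusted p = 0.109). In contrast, Gmnn, which was among the most counted members, passed in no comparison, with values of -0.11 to 0.11 in the comparisons of single pathways, starts and controls.

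A score per cell, the summed UMIs of the 36 members after each cell was thinned to 5000 UMIs, gave a view of the whole set. It averaged 17.6 over 4185 germ layer cells (10th to 90th percentile 9 to 27, highest 49), 14.5 over 2453 mesendoderm cells (7 to 22) and 15.7 over 4861 mixed cells (8 to 24). The variance over the mean was 2.74, 2.41 and 2.35, where counting alone gives 1. It was taken over cells of all treatments, so differences between populations are part of it. No test was made on scores, since they sum values tested above.

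Over populations the germ layer score was 16.7 ± 1.01 (SD, n = 16, 14.7 to 18.3) with Bmp plus and 18.5 ± 1.22 (15.4 to 21.0) with Bmp minus. Unthinned, the members took 0.324 and 0.364% of the UMIs. From the undirected start it was 15.8 ± 1.38 with RA plus and 17.3 ± 2.24 with RA minus, and 15.8 ± 1.61 with Wnt plus and 17.3 ± 2.08 with Wnt minus. From the mesendoderm start it was 13.7 ± 0.980 with Wnt plus and 15.7 ± 1.23 with Wnt minus. The score is a share of all UMIs, and TMM factors averaged 0.967 and 1.062 for Wnt plus and minus from the undirected start and 0.935 and 1.032 from the mesendoderm start. The lower Wnt plus scores thus stand beside 7 rises and 6 falls, and 3 rises and 8 falls, on the TMM scale.

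The mitotic score, from 30 genes, was separated by Wnt in the germ layer populations more than the replication score. It was 14.5 ± 0.519 (13.5 to 15.7) with Wnt plus and 16.9 ± 0.692 (15.5 to 18.2) with Wnt minus, where the replication score was 17.1 and 18.1. On the TMM scale 14 of 30 mitosis genes fell there and 0 rose, beside 11.9% of all genes that fell and 12.1% that rose. Control wells had a replication score of 16.6 ± 0.412 from the mesendoderm and 17.6 ± 0.887 from the undirected start, and treated wells 14.7 ± 1.48 and 16.6 ± 2.00.

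**Figure D4:**
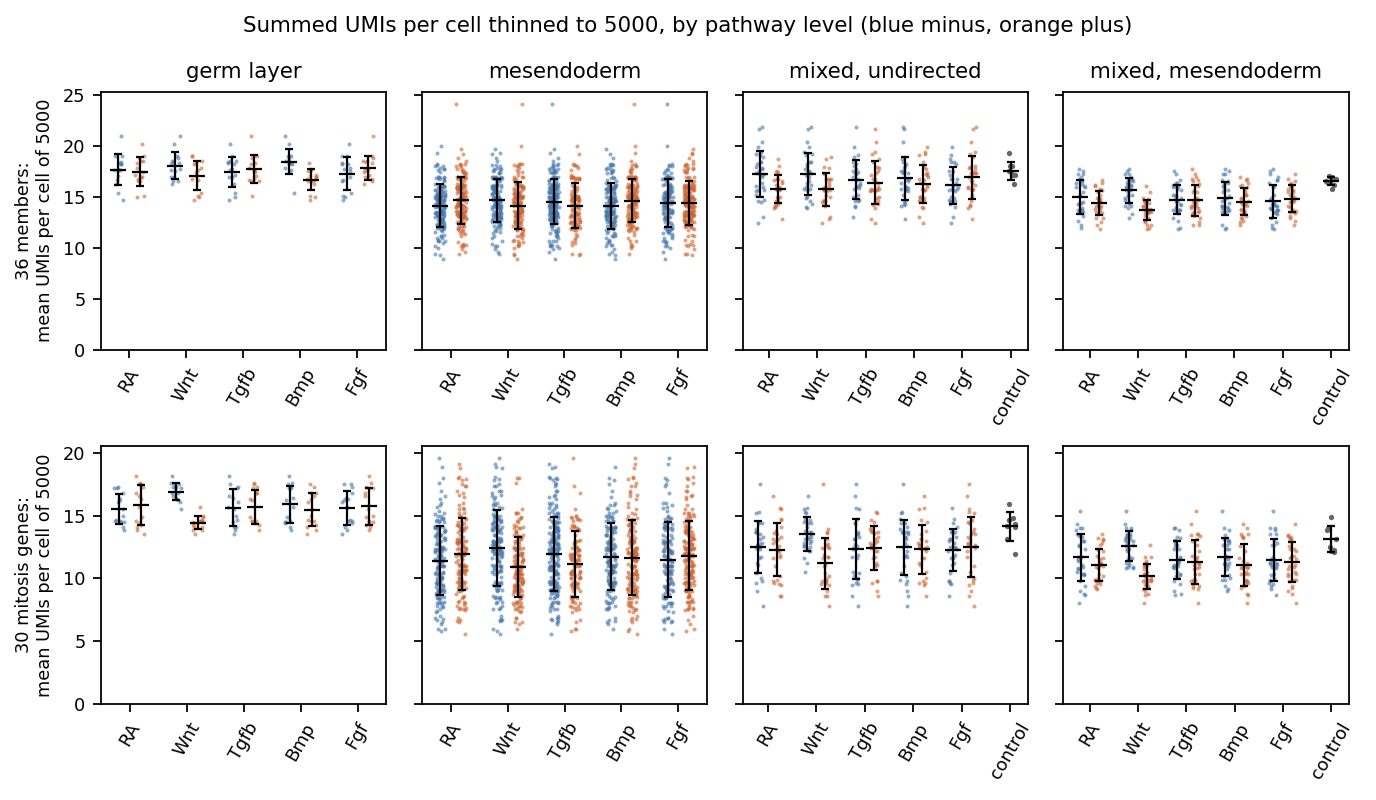
Mean summed UMIs per cell thinned to 5000 (vertical axes from 0) of the 36 members (top) and of 30 mitosis genes (bottom), for each pathway at minus (blue) and plus (orange); points are populations or wells, bars give the mean and SD, and grey points are control wells. The member score is lower with Bmp plus in the germ layer populations (16.7 against 18.5), and the mitosis score is lower with Wnt plus there (14.5 against 16.9).

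Over single cells the replication and mitosis scores were weakly related. Pearson's r was -0.145 in 4185 germ layer cells, -0.106 in 2453 mesendoderm cells and 0.114 in 4861 mixed cells. Cells of all treatments were pooled for it, so differences between populations enter these values. Cells of an experiment share a library, and the values are given as a description only. The replication score also varied with depth in the germ layer cells, with means of 18.4, 19.4, 17.2 and 15.4 in 4 equal groups of cells with median depths of 9223, 13720, 18100 and 25840 UMIs, although all cells were thinned alike.

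Members differed in how much they varied among cells of 1 population. The Fano factor (variance over mean, 1 for counting alone) was highest in germ layer cells for Rrm2 (1.35), Ung (1.29), Slbp (1.28) and Nasp (1.25). In mesendoderm cells Ccne1 (1.33), Hells (1.26), Rrm2 (1.26) and Slbp (1.25) led, and in mixed cells Tipin (1.39), Hells (1.33), Ung (1.26) and Ccne1 (1.25). The lowest factors in germ layer cells were those of Wdr76 (0.993), Pola1 (1.01), Mcm10 (1.01) and Gins2 (1.01), and in mixed cells those of Pola1 (0.998), Blm (0.998), Prim1 (1.00) and Pcna (1.00). Wdr76 had 0.122 UMIs per cell and Gins2 0.480, while Ccne2, at 0.0877, had a factor of 1.19. With 8000 UMIs per cell Rrm2 (1.45) led in mesendoderm cells, with Ccne1 the fourth (1.41), and Hells (1.59) led Tipin (1.54) in mixed cells. The correlation with the summed other members over 4185 germ layer cells was 0.289 for Slbp, 0.284 for Rrm2 and 0.279 for Ung, and -0.003 for Blm.

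**Figure D5:**
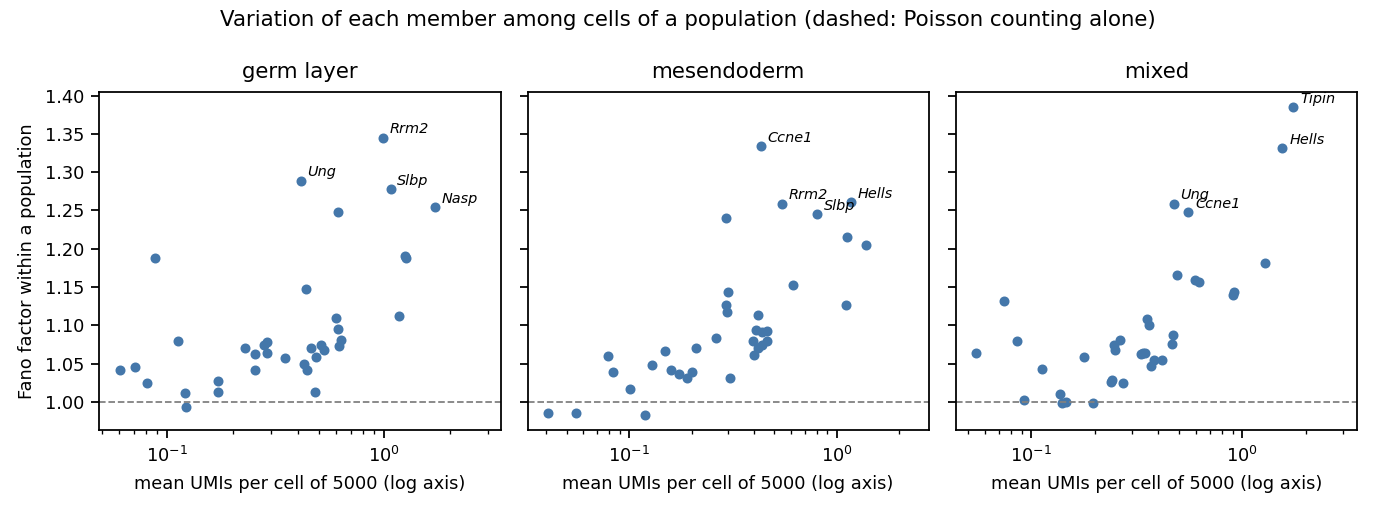
Fano factor of each of the 36 members among cells of a population (vertical axis) against its mean UMIs per cell thinned to 5000 (horizontal log axis) in the 3 experiments; the dashed line at 1 is counting alone and the 4 highest genes are named. Rrm2 leads in germ layer cells (1.35), Ccne1 in mesendoderm cells (1.33) and Tipin in mixed cells (1.39).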

How the data were processed

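The deposited matrices hold raw UMI counts per gene and cell, which the authors did not normalise, as the whole-number values show. Cell Ranger 1.3.1, HTSeq 0.9.1, STAR 2.5.2b and the build mm10 are listed in the submitters' processing notes, with no role. The authors also deposited the fraction of barcodelet counts held by each cell's leading barcodelets and its assignment. The sources used here do not give the method of assignment. Bulk libraries of the series were not used here. Cells are not replicates, so counts of cells with a passing assignment were summed per germ layer population or per well with at least 5 cells. No doublet caller was run.

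Sums were fitted with edgeR 4.0.16 in R 4.3.3 (TMM, filterByExpr, quasi-likelihood test, 2-sided, Benjamini-Hochberg over all genes tested, adjusted p under 0.05). Plus and minus were coded 0.5 and -0.5 in an additive model, in the mixed experiment nested in start with a term for control wells. A germ layer combination had 1 population, so its error is the model's residual. DESeq2 1.42.0, other scalings, no filter, thinned cells, a depth covariate, at least 10 cells, no top 5% of cells and a replicate block were tried. The procedure was tested on simulated counts. Scores thin each cell to 5000 UMIs (8000 as an alternative) and leave out shallower cells, 165 of 4350 in the germ layer experiment. P-values of each comparison were adjusted on its own.

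Wells of the mixed design were divided by this barcodelet into 2 sets, balanced over pathways, and values within each set are given. The labels do not say which wells of the undirected start belong with which of the mesendoderm start. Joining them into a set was a choice made here. For comparisons between starts, a sign kept in both sets depends on that choice and does not show that a difference was repeated. Members were called on both sets together, so the sets are not a separate test of them. What else the sets share was not stated, and they and the scaling by UMI total were added after seeing the data.

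The members and all gene lists were chosen with earlier results of these data known. Named with full values were up to 5 members per direction with the smallest adjusted p, up to 3 genes of other lists, up to 3 members per direction for pairs and differences between starts, and the 4 highest and lowest levels and Fano factors. Ccne1, Gmnn and Hells were named beyond that rule after their values were seen, in the side by side account and beside Cdca7.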

Additional observations from a re-analysis of the deposited data

Results flagged for a closer look

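Among the 8 undirected control wells, 1 well stood apart from the others in Ccne2, at 20.8 CPM with the next at 11.3 CPM. In Wdr76 the highest well had 65.6 CPM and the next 48.8 CPM. In 22 such checks chance alone would set a well apart in about 1 of 20 groups.

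The change with RA differed between starts, mesendoderm less undirected, by 0.37 ± 0.07 (log2, SE) for Hells, by 0.45 ± 0.09 for Cdca7 and by 0.33 ± 0.09 for Mcm7, with edgeR adjusted p-values of 8.376e-05, 0.0002549 and 0.01711. The change with Wnt differed by -0.35 ± 0.08 for Mcm5, -0.29 ± 0.09 for Mcm3 and -0.37 ± 0.12 for Rad51ap1 (0.002561, 0.02553 and 0.03803). Each was tested as a difference of changes within 1 model.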

How the results depend on the processing

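Of the recomputed log2 changes of named members, 821 kept direction and call, 152 kept the direction but no longer passed, and 0 reversed. These members were named for small adjusted p-values in the same data, which favours a kept direction. Counts of called members stayed within 1.5 times of the reported one in 262 cases and moved further in 72. The 262 include comparisons with 0 called members in both fits, and rises and falls were counted together, so they are no measure of stability. The 72 are given here as members called, with U for the undirected and M for the mesendoderm start of the mixed experiment. The cause was not tested. The share of all genes called moved with the setting too. For germ layer Bmp it was 43.1% in the main fit and 27.5% with thinned cells. For mesendoderm Bmp it was 29.3% and, with at least 10 cells, 7.76%. For germ layer Wnt it was 23.9% and, with the UMI total, 27.2%. Some counts below have no share of all genes beside them, those of single sets of wells among them. Such a count does not tell a change of the members from one of all genes.

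Thinning cells to 5000 UMIs leaves fewer counts and only 5 members tested in mesendoderm and 28 in mixed wells. With it the germ layer counts were 5 for RA, 0 for Tgfb, 12 for Bmp and 2 for Fgf, beside 14.8, 3.51, 27.5 and 3.13% of all genes. The mesendoderm counts were 0 for RA and 1 for Wnt, beside 16.2 and 33.4% of all genes. The mixed counts in U were 5 for RA, 5 for Wnt and 1 for Bmp, beside 21.9, 27.2 and 4.56% of all genes. In M they were 0 for RA, 6 for Wnt, 0 for Tgfb and 0 for Fgf, beside 20.9, 31.3, 3.32 and 8.87%. For the difference between starts the counts were 1 for RA and 0 for Wnt, beside 2.59 and 3.19% of all genes. Between starts 8 were called in treated and 1 in control wells (16.7 and 5.16%), and 3 for treated against control wells in M (10.8%).

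With depth as a covariate the germ layer counts were 5 for RA, 0 for Tgfb and 15 for Bmp, beside 17.2, 4.62 and 27.7% of all genes. In M there were 2 for Tgfb. With pairwise products germ layer Wnt had 4 and Fgf 2, beside 26.3 and 11.7% of all genes. With the UMI total as the scale germ layer Wnt had 5, U Fgf 5, and M had 8 for RA, 24 for Wnt and 2 for Tgfb. With no filter mesendoderm Wnt had 3 and M Fgf 3, beside 13.9 and 6.83% of all genes. With at least 10 cells the mesendoderm counts were 1 for RA, 3 for Wnt, 2 for Tgfb and 0 for Bmp, beside 8.18, 18.9, 3.91 and 7.76% of all genes. The mixed counts were 2 for U Fgf (13.4%), 2 for M Tgfb (7.12%) and 6 for the RA difference between starts.

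DESeq2 size factors gave 2 for U Fgf and 7 for M RA, beside 13.4 and 29.5% of all genes. The DESeq2 test gave 2 for U Fgf, 7 for M RA, 2 for M Tgfb and 5 for the Wnt difference. In that order 13.9, 30.3, 7 and 8.41% of all genes were called. Without the top 5% of cells U Bmp had 1, U Fgf 3 and M Fgf 3, beside 6.39, 11.4 and 11.3% of all genes. With a mean per condition U Fgf had 2.

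In the first set of mixed wells alone, with fewer wells, counts were 8 for RA, 7 for Wnt and 1 for Bmp in U, and 0 for Tgfb, 1 for Bmp and 3 for Fgf in M. They were 1 for RA and 0 for Wnt in the difference, 1 in control wells and 3 for treated against control in M. In the second set they were 4 for RA, 6 for Wnt and 0 for Bmp in U, and 2 for RA, 5 for Wnt, 0 for Tgfb, 0 for Bmp and 2 for Fgf in M. They were 1 and 0 in the differences, 5 in treated and 1 in control wells, and 3 for treated against control in M.

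Nothing in the labels says that the numbers of the third barcodelet pair wells. The mean correlation of deviations was -0.004 within and -0.003 between numbers in the mesendoderm experiment, and 0.035 and -0.060 in the mixed one, where 94.4% of wells were closer to their own set, a hint from the data that wells of a set share something there. With the number as a replicate block M Tgfb had 2 called members in place of 1, and all 72 named calls tested under the block were kept. With 8000 UMIs per cell, 0 of the 4 lowest Fano factors of the germ layer and 2 of the 4 of the mesendoderm cells stayed among the lowest 4. The leading gene changed from Ccne1 to Rrm2 in mesendoderm and from Tipin to Hells in mixed cells. Depth limits the mesendoderm wells most, where 17 of 36 members had too few counts to test. The depth covariate was not run for pairs of signals, and all germ layer populations had at least 10 cells.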
